A study of Mus musculus with 53 samples.

Results

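Myc, Mycn, Myb, Pim1, Gfi1 and Nras are growth-promoting genes found near retroviral insertions or mutated in mouse lymphomas, and their RNA levels were followed here across T-cell lymphomas of 15 genetic backgrounds. The 6 genes were taken with all their probe sets on the array, 13 probe sets of 22690, out of 12393 genes that a probe set names alone. Each of the 53 arrays holds RNA of T-cell lymphoblasts taken from a tumour of an untreated C57BL/6 mouse. The backgrounds were Cdkn2a knock out with retroviral insertional mutagenesis (9 arrays), beta-catenin transgenic (3), Ikaros Plastic (3), ThPOK transgenic (3), E2A knock out (2), rag E2A knock out (2), Tal1 transgenic (2), Tal1-LMO2 double transgenic (3), LMO1 transgenic (3), a double transgenic of LMO1 with olig1 by one label and olig2 by another (3, called olig-LMO1 here), Nup98HoxD13 transgenic (3), Pokemon transgenic (2), p53 knock out (3), TLX1 transgenic (6, labelled as TLX1 positive) and TLX1 transgenic crossed with RUNX heterozygous (6, labelled as TLX1 negative, called TLX1/RUNX-heterozygous here). No array of normal thymus was among them, the promoters of the transgenes and the exons removed in the knock outs are not given in the labels, and nothing says whether replicate arrays came from separate animals, so p-values measure the spread between arrays only. The titles of the 9 Cdkn2a knock-out arrays name genes: myc in 5, of which 2 also name ras, ras alone in 1, myb in 2, and pim1 with ccnd3 in 1. How those genes were assigned is not stated, and the title words "mix" and "pure" are not explained.

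A retrovirus that integrates near a gene can raise its transcription through the enhancers in the viral ends, and genes hit again and again in separate tumours are called common insertion sites. Myc and its relative Mycn encode transcription factors that bind DNA with the partner Max and drive ribosome production, metabolism and cell division. Myb encodes a transcription factor needed by immature thymocytes and other blood progenitors. Gfi1 encodes a zinc-finger repressor that acts in developing T cells and in blood stem cells. Pim1 encodes a serine/threonine kinase that favours survival and cooperates with Myc in lymphoma, and Nras encodes a small GTPase that passes signals from receptors to the ERK pathway.

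In GRCm38.p6, from RefSeq, Myc lies at chr15:61985341-61990361, Mycn at chr12:12936093-12941836, Myb at chr10:21124930-21160984, Pim1 at chr17:29490785-29496111, Gfi1 at chr5:107716655-107725805 and Nras at chr3:103058285-103067914. RefSeq promoter windows, each 250 bases before to 50 bases after a transcription start, matched 5 of the 6 genes with 7 windows, and Myc had no entry. The windows of 4 genes are shown because MYC and MYB proteins are themselves products of the 6 genes. Capitals mark CACGTG, the E-box that MYC and MAX bind, and AACNG, the core that MYB binds, each searched on both strands. The Myb window (chr10:21160935-21161234, minus strand), the second Pim1 window (chr17:29492835-29493134, plus strand), the first Gfi1 window (chr5:107725756-107726055, minus strand) and the Nras window (chr3:103058035-103058334, plus strand) read as follows.
Myb: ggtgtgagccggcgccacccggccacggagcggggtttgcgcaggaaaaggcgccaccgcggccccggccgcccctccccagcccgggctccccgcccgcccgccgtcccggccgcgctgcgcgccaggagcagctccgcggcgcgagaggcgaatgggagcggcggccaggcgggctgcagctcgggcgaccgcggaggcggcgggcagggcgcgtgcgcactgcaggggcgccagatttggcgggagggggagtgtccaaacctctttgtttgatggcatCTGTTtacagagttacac
Pim1: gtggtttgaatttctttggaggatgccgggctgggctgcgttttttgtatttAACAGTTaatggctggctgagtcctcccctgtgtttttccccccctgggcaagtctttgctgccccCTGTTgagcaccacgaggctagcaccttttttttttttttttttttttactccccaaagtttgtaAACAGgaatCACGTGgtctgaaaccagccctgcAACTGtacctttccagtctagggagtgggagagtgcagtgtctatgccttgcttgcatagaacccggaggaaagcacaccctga
Gfi1: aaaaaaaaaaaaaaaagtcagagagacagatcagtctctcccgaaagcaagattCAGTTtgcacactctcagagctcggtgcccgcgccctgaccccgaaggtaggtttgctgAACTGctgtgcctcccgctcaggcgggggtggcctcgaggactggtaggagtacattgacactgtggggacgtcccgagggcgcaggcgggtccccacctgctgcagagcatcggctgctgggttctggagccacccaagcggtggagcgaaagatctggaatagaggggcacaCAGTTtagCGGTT
Nras: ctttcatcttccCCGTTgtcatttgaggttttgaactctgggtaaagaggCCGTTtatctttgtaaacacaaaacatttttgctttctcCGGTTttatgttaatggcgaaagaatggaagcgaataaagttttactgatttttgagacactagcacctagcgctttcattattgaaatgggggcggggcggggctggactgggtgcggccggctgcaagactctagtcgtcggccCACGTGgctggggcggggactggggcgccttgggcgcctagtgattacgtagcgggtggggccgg
Of the 7 windows, the second Pim1 window and the Nras window each held CACGTG in 1 place, and the others did not hold it. Of 32851 mouse promoter windows, 7.15% hold it. AACNG was in 5 places in the second Pim1 window, where some copies overlap, 4 in the first Gfi1 window, 3 in the Nras window and 1 in the Myb window. Of the windows not shown, the first Pim1 window held neither motif. The second Gfi1 window and the Mycn window held AACNG in 1 place each. That short core was in 80.3% of all windows, so its presence sets none of these genes apart, and a match is a stretch of letters, not a measured binding site.

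The values are deposited signal intensities, used here on the log2 scale, where a difference of 1 is a doubling, and levels are compared between arrays for 1 probe set and not between probe sets. Array medians lay between 377.2 and 589.6 intensity units and no pair of arrays correlated above 0.9879. Clustering on 45 bacterial and phage control probe sets split the arrays into 4 sets of 21, 15, 9 and 8 arrays, which follow the backgrounds closely. The first set held all 6 TLX1/RUNX-heterozygous arrays, LMO1, Nup98HoxD13, ThPOK and Pokemon, with 2 olig-LMO1 arrays, 1 p53 array and 1 Cdkn2a array. The second held 8 Cdkn2a arrays with beta-catenin, Ikaros Plastic and 1 olig-LMO1 array, the fourth held TLX1 and 2 p53 arrays, and the E2A, rag E2A, Tal1 and Tal1-LMO2 backgrounds made up the third set, so for these 4 the set and the background cannot be told apart. The log2 difference between the 3' and 5' Actb control probe sets, a measure of RNA integrity, was between 0.79 and 2.17 in TLX1 arrays, 0.57 and 0.88 in TLX1/RUNX-heterozygous arrays, 0.06 and 0.43 in Cdkn2a arrays, and 1.53, 1.09 and 0.27 in the 3 p53 arrays. In bulk tumour RNA, fewer cells of a type and less RNA per cell cannot be told apart. Of 8 measured T-lineage markers, at least 6 were above the array median on every array but p53 replicate 2, which had 4 of 8, the lowest summed T-lineage intensity of the 53 arrays (7712.9, against 40001.5 and 42814.3 in the other p53 arrays) and the highest sum of stromal, endothelial and epithelial markers (34080.7, against 7980.6 and 10605.2). Within that sum, Col1a1, Col1a2, Col3a1, Pecam1 and Cdh5 were each the highest of the 53 arrays. The epithelial markers were lower than in the other p53 arrays: Krt8 at 7.81 against 8.76 and 8.64, Krt18 at 7.98 against 8.47 and 8.14, and Epcam at 7.89 against 8.23 and 8.34. Its Cd3d level was 8.50, against 12.62 and 13.09 in the other p53 arrays. Cd3e, Cd3g, Thy1, Zap70 and Bcl11b were likewise lower than in the other p53 arrays. Cd2 at 9.70 and Cd5 at 7.79 were below p53 replicate 1 but above p53 replicate 3 (8.99 and 7.50). Calls in p53 tumours that p53 replicate 2 decides are given with and without it.

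On the deposited values, the 6 genes differed among the backgrounds no more often than other genes did. The limma moderated F-test over the 15 backgrounds called 10 of the 13 probe sets at an adjusted p under 0.05, beside 90.7% of all 22626 probe sets tested. The leading probe set of Mycn, the one with the highest mean over all arrays, had 93.0% of its variance between backgrounds, Myc 76.2%, Gfi1 59.0% and the leading Nras probe set 59.3%, against a median of 68.2% over all probe sets. Myb varied mostly within backgrounds on every probe set: 36.6% of the variance of the leading one lay between backgrounds (adjusted p = 0.107), 40.4% of the second (adjusted p = 0.0521) and 45.9% of 1422734_a_at (adjusted p = 0.015). On the leading one the SD was 2.23 in p53 and 0.89 in Ikaros Plastic tumours, each widened by 1 low array, and at most 0.43 elsewhere. Shares without those arrays were not computed. With arrays centred on their median, all 13 probe sets of the 6 genes were called, beside 93.9% of all probe sets. The pair of Pim1 probe sets parted, with 76.8% between backgrounds for 1423006_at and 35.6% for 1435458_at (adjusted p = 0.13).

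**Figure D1:**
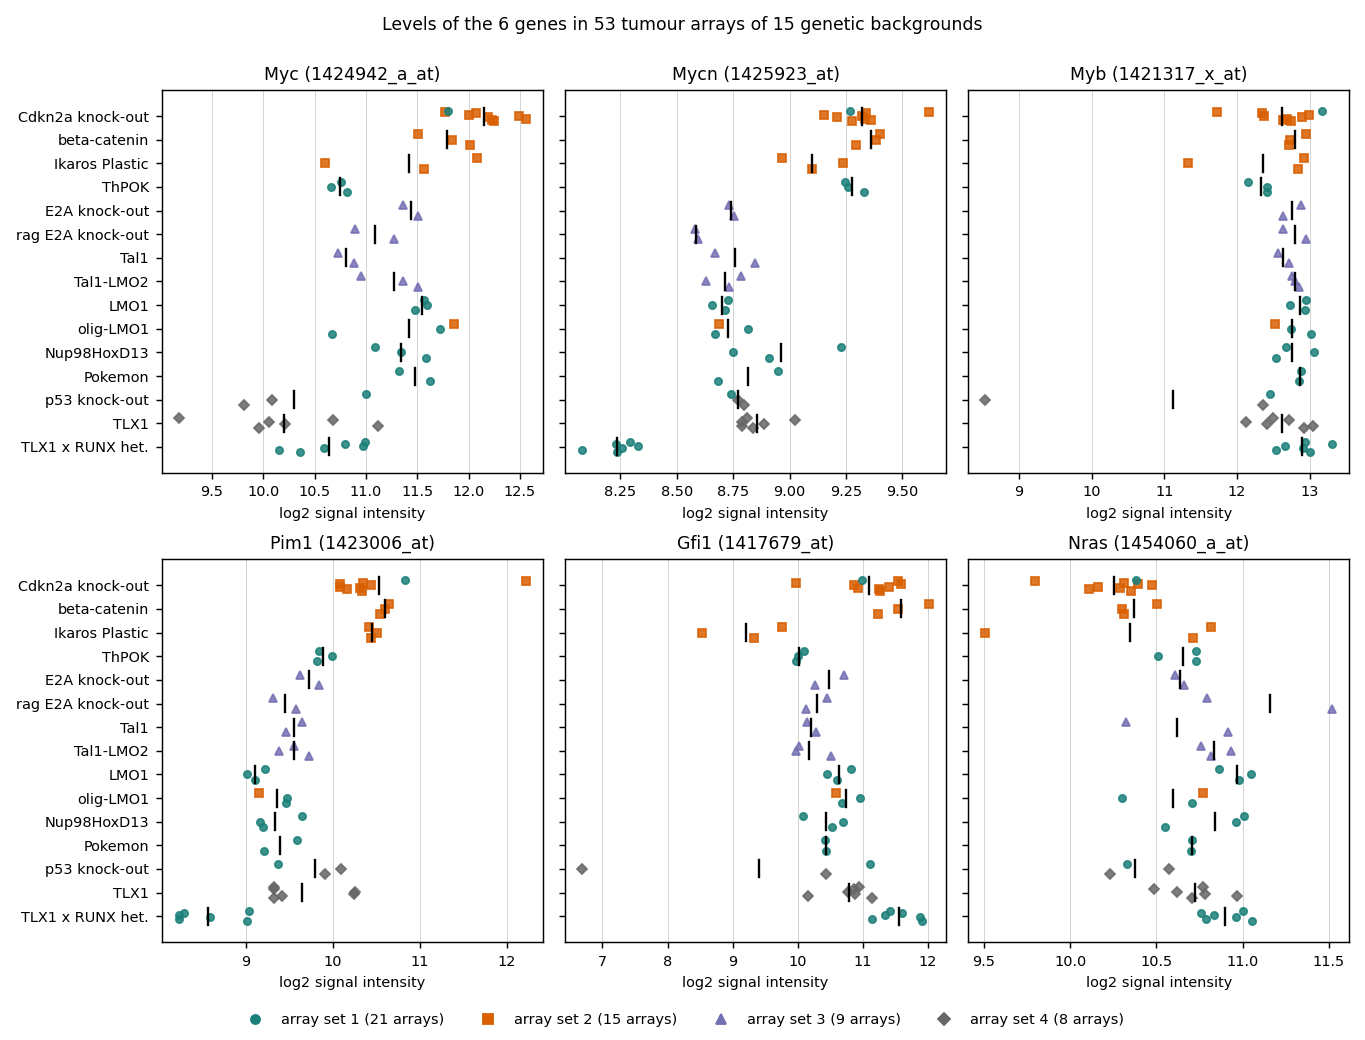
Log2 signal intensity (x axis) of 1 probe set of each gene in every array, with the 15 backgrounds down the page, black bars at background means and colours and shapes for the 4 array sets. Myc stood highest in Cdkn2a knock-out tumours, Pim1 in beta-catenin, Cdkn2a and Ikaros Plastic tumours, and 1 p53 array lay far below the rest for Myb and Gfi1.

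Each background was then set against the mean of the other 14 background means in the same fit. In Cdkn2a knock-out tumours 5 of the 13 probe sets were higher and 3 lower, beside 52.0% of all probe sets called, and in beta-catenin tumours 5 were higher and 1 lower, beside 39.3%. The p53 tumours had 2 higher and 6 lower beside 46.0%, and 0 higher and 2 lower without p53 replicate 2. The TLX1/RUNX-heterozygous tumours 3 higher and 5 lower beside 66.9%, and the TLX1 tumours 2 higher and 2 lower beside 55.7%. Ikaros Plastic tumours had 2 in each direction beside 32.2%, ThPOK tumours 2 in each direction beside 28.4%, and olig-LMO1 tumours 1 higher and 2 lower beside 16.8%. No probe set of the 6 genes passed in LMO1 (17.9% of all probe sets), Tal1 (4.89%), Tal1-LMO2 (4.52%), Nup98HoxD13 (3.56%), Pokemon (3.17%), rag E2A (2.23%) or E2A tumours (1.96%). Against these shares of all probe sets, the counts do not set the 6 genes apart. Split by direction, the shares of all probe sets were 28.5% higher and 10.7% lower in beta-catenin, 35.0% and 17.0% in Cdkn2a, 22.0% and 10.2% in Ikaros Plastic, 23.7% and 22.3% in p53, 31.9% and 23.8% in TLX1, and 20.8% and 46.0% in TLX1/RUNX-heterozygous tumours. Of the 45 calls, 25 were lost or reversed with the array set as a block. That block cannot adjust E2A, rag E2A, Tal1 and Tal1-LMO2, which alone fill the third set, so they enter each difference unadjusted. In the largest array set alone 31 of the 45 calls had a value, and 16 of the 31 were lost or reversed. Markers of cell types moved with the backgrounds as well. In Cdkn2a tumours 3 of 8 T-lineage markers were lower (summed intensity 20520.0 to 34179.2 over the arrays) and 4 of 8 myeloid markers higher (11929.1 to 16467.3). TLX1/RUNX-heterozygous tumours had 4 T-lineage and 4 of 6 B-lineage markers lower, and 6 of 6 B-lineage markers were higher in beta-catenin tumours. Of 8 stromal, endothelial and epithelial markers, 3 were higher in each of the Ikaros Plastic, TLX1 and TLX1/RUNX-heterozygous tumours. In p53 tumours 5 of these were higher and 3 T-lineage markers lower, and without p53 replicate 2 both counts were 0. Their part in the values below was not tested.

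**Figure D2:**
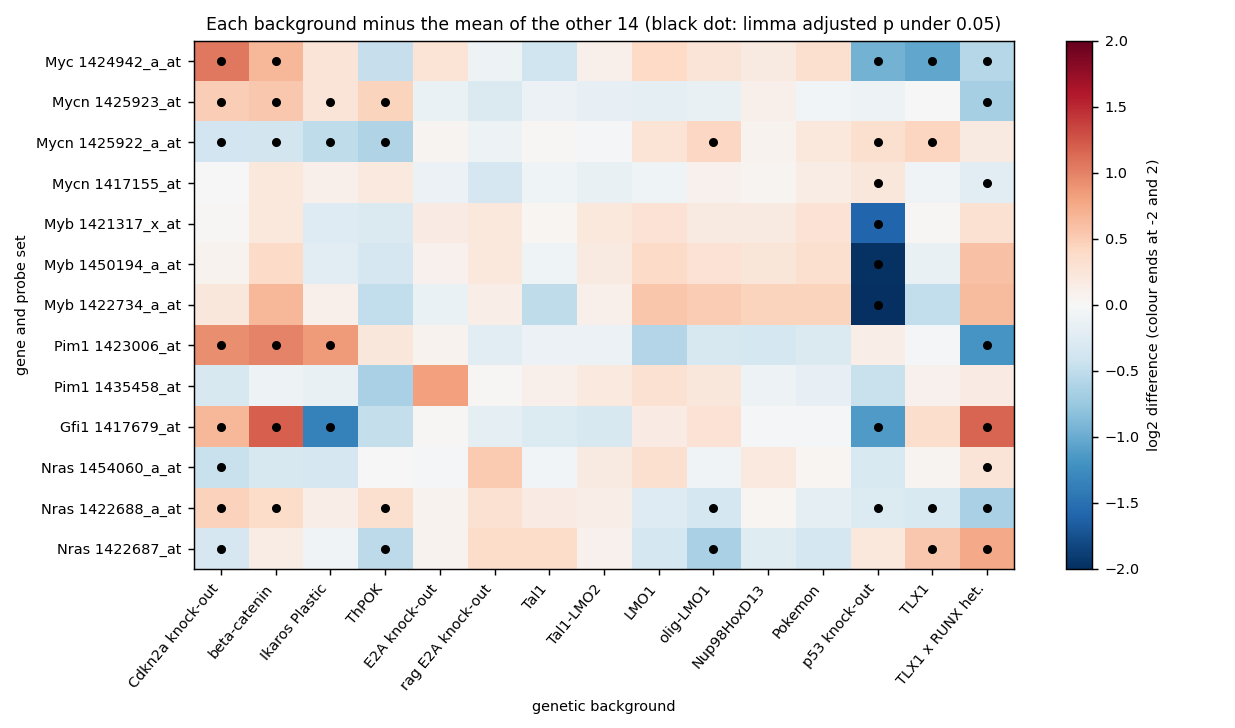
Log2 difference between each background (x axis) and the mean of the other 14 for the 13 probe sets (y axis), with colours ending at -2 and 2 and a black dot where the limma adjusted p was under 0.05. The 3 Myb rows carry a dot in p53 tumours only, and the first and second Mycn rows have opposite colours in the 4 leftmost columns.

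Myc was highest in the Cdkn2a knock-out tumours, the group with retroviral insertions. Its single probe set, 1424942_a_at, was above the array median on all 53 arrays, and its intensity ran from 578.8 to 6024.4 with a median of 2568.1. On the log2 scale the 9 Cdkn2a arrays ran from 11.77 over a median of 12.19 to 12.56. The 3 beta-catenin arrays read 12.02, 11.84 and 11.51, close to the lower end of the Cdkn2a arrays and overlapping them. Means (± SD) were 12.15 ± 0.27 in Cdkn2a, 11.79 ± 0.26 in beta-catenin, 11.55 ± 0.06 in LMO1, 11.48 ± 0.21 in Pokemon and 11.43 ± 0.11 in E2A tumours. Next came olig-LMO1 at 11.42 ± 0.65, Ikaros Plastic at 11.42 ± 0.75, Nup98HoxD13 at 11.34 ± 0.25, Tal1-LMO2 at 11.27 ± 0.29 and rag E2A at 11.08 ± 0.27. The lower end held Tal1 at 10.80 ± 0.11, ThPOK at 10.74 ± 0.08, TLX1/RUNX-heterozygous at 10.64 ± 0.34, p53 at 10.30 ± 0.62 and TLX1 at 10.20 ± 0.66. Ranges of neighbours in that order overlapped in 13 of 14 pairs, and only rag E2A and Tal1 lay apart.

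Against the mean of the other backgrounds (11.10), Myc rose by 1.05 ± 0.15 (log2 ± SE, limma adjusted p = 2.21e-07) in Cdkn2a tumours. With the array set as a block that difference was 0.55 (adjusted p = 0.121), and within the largest array set, where 1 Cdkn2a array remained, it was 0.67 (adjusted p = 0.126). Beta-catenin tumours were higher by 0.66 ± 0.24 (adjusted p = 0.0294), and by 0.10 with the block (adjusted p = 0.865). Myc fell by 1.04 ± 0.18 in TLX1 tumours (adjusted p = 4.22e-06), whose 6 arrays ran from 9.18 over a median of 10.13 to 11.12. Every TLX1 array shares its set with p53 arrays only, and with the block the TLX1 difference was 0.0755 (adjusted p = 0.962). The p53 arrays read 9.81, 10.08 and 11.00, and Myc fell by 0.94 ± 0.24 there (adjusted p = 0.00171), against a difference of -0.20 with the block (adjusted p = 0.812). In TLX1/RUNX-heterozygous tumours it fell by 0.57 ± 0.18 (adjusted p = 0.00511) and the difference was -0.58 with the block (adjusted p = 0.00804). That last call, unlike the others, stood with the block, and its difference was -0.66 in the largest array set alone. It was lost when each array was centred on its median, and with the replicate number as a block without Cdkn2a arrays.

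The partners and target genes of MYC are given beside the shares of all probe sets called. Of 20 listed MYC target genes, mostly of ribosome production, translation and metabolism, 5 were higher and 0 lower in Cdkn2a tumours, where 35.0% of all probe sets were higher, with a median difference of 0.15 beside 0.07 for all probe sets. They included Eif4a1 (0.48) and Eif4e (0.31), both translation initiation factors, Polr1b (0.39), a subunit of RNA polymerase I, and Bop1 (0.31), a ribosome assembly factor. In TLX1 tumours, where 23.8% of all probe sets were lower, 0 were higher and 5 lower, among them Eif4a1 (-0.91), Eif4e (-0.70), the helicase gene Ddx18 (-0.53) and Npm1 (-0.42), which encodes nucleophosmin; the list median was -0.10 beside 0.04. In p53 tumours 1 was higher and 7 lower, led by Tfrc, the transferrin receptor gene (-1.56), with a median of -0.30 beside -0.01. Without p53 replicate 2 this was 1 higher and 1 lower, with a median of -0.0747, and Tfrc was at -0.75. In TLX1/RUNX-heterozygous tumours, where 46.0% of all probe sets were lower, 1 was higher and 6 lower, led by Polr1b (-1.35), with a median of -0.23 beside -0.16. Beta-catenin tumours, where Myc also passed, had 1 higher and 1 lower. Among 10 partners and antagonists, Max, the common dimerisation partner, was 0.41 higher in Cdkn2a and 0.70 higher in beta-catenin tumours. Of that list 3 were higher and 2 lower in Cdkn2a tumours, and 3 higher and 1 lower in beta-catenin tumours, with medians of -0.041 and 0.12 beside 0.07 and 0.08. Over the 41 arrays outside the TLX1 and TLX1/RUNX-heterozygous tumours, Myc and the mean of the 20 target genes correlated with r = 0.60 and rho = 0.56, and r was 0.49 over 39 arrays without p53 replicates 1 and 2. The arrays share chips, sets and overall brightness, so this is a description.

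Mycn, the relative of Myc best known from the nervous system and from embryos, was dim. Its leading probe set 1425923_at was above the array median on 21 of 53 arrays and the other Mycn probe sets on 0, so differences of these probe sets are small and near background. On 1425923_at the means were 9.36 ± 0.06 in beta-catenin, 9.32 ± 0.13 in Cdkn2a, 9.28 ± 0.04 in ThPOK, 9.10 ± 0.14 in Ikaros Plastic and 8.96 ± 0.24 in Nup98HoxD13 tumours. The middle of the order was narrow, with 8.86 ± 0.09 in TLX1, 8.82 ± 0.19 in Pokemon, 8.77 ± 0.03 in p53, 8.76 ± 0.13 in Tal1 and 8.74 ± 0.02 in E2A tumours. It ended with 8.73 ± 0.08 in olig-LMO1, 8.72 ± 0.08 in Tal1-LMO2, 8.70 ± 0.04 in LMO1, 8.59 ± 0.01 in rag E2A and 8.24 ± 0.08 in TLX1/RUNX-heterozygous tumours. The 6 TLX1/RUNX-heterozygous arrays, from 8.08 over a median of 8.24 to 8.33, lay below every array of rag E2A, the next background, and ranges overlapped in 11 of 14 neighbour pairs.

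The leading Mycn probe set rose by 0.53 ± 0.07 in beta-catenin (adjusted p = 6.12e-08), by 0.49 ± 0.04 in Cdkn2a (adjusted p = 2.21e-12), by 0.45 ± 0.07 in ThPOK (adjusted p = 6.01e-06) and by 0.26 ± 0.07 in Ikaros Plastic tumours (adjusted p = 0.00447). It fell by 0.67 ± 0.05 in TLX1/RUNX-heterozygous tumours (adjusted p = 9.33e-15). The median of all probe sets moved too, by 0.08, 0.07, 0.07, 0.05 and -0.16 in those 5 backgrounds. With the array set as a block the differences were 0.53, 0.49, 0.45, 0.25 and -0.66, and the Ikaros Plastic call alone was lost (adjusted p = 0.102). Over all alternatives run, the differences nearest to none were 0.34, 0.34, 0.33, 0.07 and -0.32. The Ikaros Plastic call was also lost after quantile normalization, with arrays centred on their median and without Ikaros Plastic replicate 2. Mean array medians in the 5 backgrounds were 9.08, 9.04, 9.01, 9.06 and 8.61 on the log2 scale, and their part was not tested. The second probe set, 1425922_a_at, went the other way in 4 of these backgrounds: the difference was -0.37 in beta-catenin, -0.38 in Cdkn2a, -0.61 in ThPOK and -0.51 in Ikaros Plastic tumours. It rose by 0.41 in olig-LMO1, 0.32 in p53 and 0.44 in TLX1 tumours. With the array set as a block the calls of this probe set in ThPOK (-0.61) and olig-LMO1 tumours (0.45) were kept, while those in beta-catenin (-0.24, adjusted p = 0.365), Cdkn2a (-0.26, adjusted p = 0.159), Ikaros Plastic (-0.37, adjusted p = 0.151), p53 (0.15, adjusted p = 0.692) and TLX1 tumours (0.19, adjusted p = 0.742) were lost. Without p53 replicate 2 the p53 difference was 0.31 (adjusted p = 0.113). Over 41 arrays the first and second probe sets correlated with r = -0.65 (0.28 with background means taken off), so no direction for Mycn RNA holds for both. The third, 1417155_at, differed by 0.23 in p53 (adjusted p = 0.0402) and by -0.22 in TLX1/RUNX-heterozygous tumours (adjusted p = 0.00391). The p53 arrays read 7.37, 8.27 and 7.81, and without p53 replicate 2, the highest, the difference was 0.0029 (adjusted p = 0.987); with the array set as a block it was 0.21 (adjusted p = 0.43). The TLX1/RUNX-heterozygous difference was 0.0848 with arrays centred on their median.

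Myb was well above the array median in nearly all tumours and varied little between most backgrounds. Its leading probe set 1421317_x_at was above the array median on 52 of 53 arrays, with an intensity from 371.5 over a median of 6775.0 to 10157.3. Means were 12.89 ± 0.27 in TLX1/RUNX-heterozygous, 12.87 ± 0.13 in LMO1, 12.87 ± 0.02 in Pokemon, 12.80 ± 0.05 in Tal1-LMO2 and 12.80 ± 0.13 in beta-catenin tumours. They were 12.80 ± 0.22 in rag E2A, 12.76 ± 0.25 in olig-LMO1, 12.76 ± 0.27 in Nup98HoxD13, 12.76 ± 0.18 in E2A and 12.64 ± 0.11 in Tal1 tumours. Cdkn2a tumours followed at 12.62 ± 0.43, TLX1 at 12.62 ± 0.34, Ikaros Plastic at 12.36 ± 0.89, ThPOK at 12.33 ± 0.15 and p53 at 11.12 ± 2.23. Apart from p53 the means lay close together, and 13 of 14 neighbour pairs overlapped. The wide SDs of p53 and Ikaros Plastic tumours each came from 1 array: p53 arrays read 12.36, 8.54 and 12.45, and Ikaros Plastic arrays 12.84, 11.33 and 12.92.

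In p53 tumours the 3 Myb probe sets fell by 1.59 ± 0.36 (limma adjusted p = 0.000385), fell by 1.98 ± 0.43 (adjusted p = 0.00024) and fell by 2.21 ± 0.47 (adjusted p = 0.000187). Without p53 replicate 2, the array with the lowest T-lineage sum, the differences were -0.30 (adjusted p = 0.398), -0.36 (adjusted p = 0.326) and -0.57 (adjusted p = 0.226). In it Myb 1450194_a_at and 1422734_a_at read 7.08 and 6.14, against 11.76 and 12.07, and 10.66 and 11.46, in the other p53 arrays. Ikaros Plastic replicate 2 had a T-lineage sum of 24605.3, against 47625.4 and 50171.3 in the other Ikaros Plastic arrays, and a stromal, endothelial and epithelial sum of 27570.8, against 8795.0 and 12576.0. Leading Myb and the mean of 8 T-lineage markers correlated with r = 0.74 over 41 arrays, and r was 0.14 over 39 arrays without these 2. The MYB list followed no such order: of 10 measured relatives and target genes, 4 were higher and 1 lower in p53 tumours, beside 23.7% and 22.3% of all probe sets, with Rag2, which cuts antigen receptor genes, higher by 1.83, and Kit, a growth factor receptor gene, by 1.5. Without p53 replicate 2 the counts were the same, with Rag2 at 1.94 and Kit at 1.24, and the list median was 0.082, against 0.0018 with it. In TLX1/RUNX-heterozygous tumours, where Myb had its highest mean but no call, 0 were higher and 6 lower beside 20.8% and 46.0%, with a list median of -0.45 beside -0.16, among them Rag2 (-2.29) and Mad1l1 (-1.41), a mitotic checkpoint gene.

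Gfi1 was high in beta-catenin, TLX1/RUNX-heterozygous and Cdkn2a tumours and low in Ikaros Plastic tumours. Its probe set 1417679_at was above the array median on 51 of 53 arrays, from 103.3 over a median of 1664.2 to 4131.2 intensity units. Means were 11.59 ± 0.40 in beta-catenin, 11.55 ± 0.31 in TLX1/RUNX-heterozygous, 11.09 ± 0.49 in Cdkn2a, 10.79 ± 0.33 in TLX1 and 10.74 ± 0.19 in olig-LMO1 tumours. They were 10.63 ± 0.18 in LMO1, 10.48 ± 0.32 in E2A, 10.44 ± 0.32 in Nup98HoxD13, 10.43 ± 0.01 in Pokemon and 10.29 ± 0.22 in rag E2A tumours. The lowest were 10.21 ± 0.10 in Tal1, 10.17 ± 0.29 in Tal1-LMO2, 10.02 ± 0.06 in ThPOK, 9.41 ± 2.38 in p53 and 9.20 ± 0.63 in Ikaros Plastic tumours. All 14 neighbour pairs overlapped, at the low end because the p53 arrays spread from 6.69 to 11.11. Without p53 replicate 2, p53 averaged 10.77 and Ikaros Plastic followed ThPOK, 0.82 lower and with no overlap. The 3 Ikaros Plastic arrays read 9.32, 8.52 and 9.76, below every array of the other backgrounds but p53 replicate 2, and far below the 6 TLX1/RUNX-heterozygous arrays, which ran from 11.14 over a median of 11.51 to 11.91.

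Gfi1 rose by 1.20 ± 0.38 in beta-catenin (adjusted p = 0.0098), by 1.16 ± 0.28 in TLX1/RUNX-heterozygous (adjusted p = 0.000331) and by 0.66 ± 0.23 in Cdkn2a tumours (adjusted p = 0.0156). With the array set as a block these differences were 0.93 (adjusted p = 0.177), 0.85 (adjusted p = 0.00748) and 0.39 (adjusted p = 0.491). It fell by 1.36 ± 0.38 in Ikaros Plastic tumours (adjusted p = 0.00522), and the difference was -1.02 without Ikaros Plastic replicate 2 (adjusted p = 0.135). In p53 tumours it fell by 1.13 ± 0.38 (adjusted p = 0.0127), and without p53 replicate 2, which read 6.69 against 10.43 and 11.11, the difference was 0.23 (adjusted p = 0.563). Of the 5 Gfi1 calls, that in TLX1/RUNX-heterozygous tumours held under all alternatives run. Among 9 measured relatives and target genes, 2 were higher and 4 lower in beta-catenin and likewise 2 and 4 in Cdkn2a tumours, with list medians of -0.65 and -0.42 beside 0.08 and 0.07; of all probe sets 10.7% and 17.0% were lower there. Among the genes lower in both was Id2, an inhibitor of E proteins that GFI1 is known to repress in blood progenitors, at -1.71 and -1.21. In Ikaros Plastic tumours Id2 was higher by 1.13, and in TLX1/RUNX-heterozygous tumours, where Gfi1 was also high, Id2 was higher by 1.12 and Il7r, the interleukin receptor gene, by 1.71. Id2 thus did not have opposite signs to Gfi1 in every background with a call. Leading Myb and Gfi1 correlated with r = 0.72 over 41 arrays, and with r = 0.07 over 39 arrays without p53 and Ikaros Plastic replicate 2.

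Pim1 was measured by probe sets of nearly the same mean level that gave different orders. For 1423006_at the 3 beta-catenin arrays read 10.54, 10.59 and 10.64, the 3 Ikaros Plastic arrays 10.43, 10.51 and 10.41, and the 9 Cdkn2a arrays ran from 10.08 over a median of 10.33 to 12.21. Their means were 10.59 ± 0.05 in beta-catenin, 10.45 ± 0.05 in Ikaros Plastic and 10.53 ± 0.67 in Cdkn2a tumours. ThPOK, the next in order at 9.88 ± 0.10, lay 0.57 below Ikaros Plastic with no overlap, but single TLX1 and p53 arrays, up to 10.25 and 10.09, lay above the lowest Cdkn2a array. After ThPOK came p53 at 9.79 ± 0.38, E2A at 9.72 ± 0.16, TLX1 at 9.64 ± 0.47, Tal1-LMO2 at 9.55 ± 0.18, Tal1 at 9.55 ± 0.13 and rag E2A at 9.44 ± 0.19. The order ended with Pokemon at 9.39 ± 0.26, olig-LMO1 at 9.36 ± 0.18, Nup98HoxD13 at 9.33 ± 0.27, LMO1 at 9.11 ± 0.10 and TLX1/RUNX-heterozygous at 8.56 ± 0.38. For 1435458_at, the leading probe set by a very small margin, the order was E2A at 10.51 ± 0.61 first, TLX1/RUNX-heterozygous at 9.90 ± 0.62 in the fifth place, Cdkn2a at 9.45 ± 0.41 in the thirteenth and ThPOK last at 9.14 ± 0.17. Over 41 arrays the Pim1 probe sets correlated with r = -0.33.

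On 1423006_at Pim1 rose by 0.9995 ± 0.23 in beta-catenin (adjusted p = 0.00068), by 0.93 ± 0.14 in Cdkn2a (adjusted p = 9.15e-07) and by 0.84 ± 0.23 in Ikaros Plastic tumours (adjusted p = 0.00524), and it fell by 1.18 ± 0.17 in TLX1/RUNX-heterozygous tumours (adjusted p = 1.13e-07). With the array set as a block the differences were 1.35, 1.24, 1.19 and -1.18, all still called. Beta-catenin, Ikaros Plastic and 8 of the 9 Cdkn2a arrays lie in the same array set, so a comparison within it cannot set them against most other backgrounds. The Cdkn2a difference was 0.72 without the array whose title names pim1. On 1435458_at no background passed. Of 9 measured PIM relatives and substrates, 4 were higher and 0 lower in beta-catenin, 5 and 1 in Cdkn2a and 4 and 0 in Ikaros Plastic tumours, beside 28.5%, 35.0% and 22.0% of all probe sets higher, with list medians of 0.29, 0.31 and 0.25 beside 0.08, 0.07 and 0.05 for all probe sets. Socs1, a cytokine signalling inhibitor, was higher by 1.57 in beta-catenin and 0.53 in Cdkn2a tumours, Cdkn1a, the p21 cell cycle inhibitor gene, by 1.46 and 0.60, and the related kinase gene Pim3 by 0.45 in Cdkn2a and 0.61 in Ikaros Plastic tumours. Cdkn1b, the p27 inhibitor gene, fell by 0.51 in Cdkn2a tumours. Leading Mycn and 1423006_at correlated with r = 0.80 over 41 arrays.

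**Figure D3:**
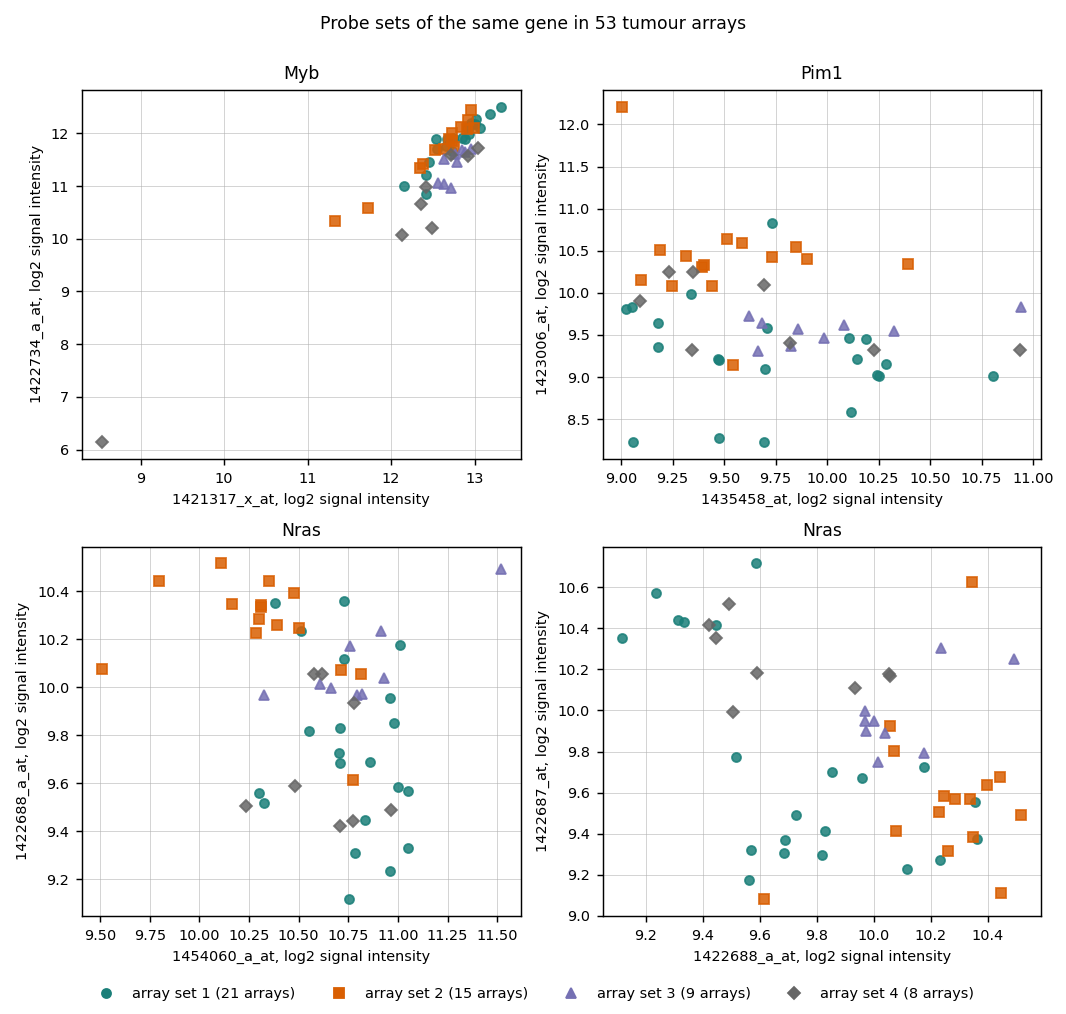
Log2 signal intensities of probe sets of the same gene against each other in 53 arrays, coloured by array set. The Myb pair falls along a line with 1 array far down it, while the Pim1 and Nras pairs show no common line.

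Nras was measured by 3 probe sets that gave different directions. The leading one, 1454060_a_at, was above the array median on all 53 arrays, from 728.3 over a median of 1672.3 to 2931.8 intensity units. Means were 11.16 ± 0.51 in rag E2A, 10.96 ± 0.10 in LMO1, 10.90 ± 0.12 in TLX1/RUNX-heterozygous, 10.84 ± 0.25 in Nup98HoxD13 and 10.83 ± 0.09 in Tal1-LMO2 tumours. They were 10.72 ± 0.16 in TLX1, 10.70 ± 0.0037 in Pokemon, 10.66 ± 0.13 in ThPOK, 10.63 ± 0.04 in E2A and 10.62 ± 0.42 in Tal1 tumours. The end of the order was olig-LMO1 at 10.59 ± 0.26, p53 at 10.38 ± 0.18, beta-catenin at 10.37 ± 0.11, Ikaros Plastic at 10.35 ± 0.73 and Cdkn2a at 10.25 ± 0.21. All neighbours overlapped.

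In Cdkn2a tumours 1454060_a_at fell by 0.44 ± 0.09 (adjusted p = 0.000106) and 1422687_at fell by 0.34 ± 0.08 (adjusted p = 0.000463), while 1422688_a_at rose by 0.46 ± 0.06 (adjusted p = 1.06e-07). The 9 arrays ran from 9.80 over a median of 10.31 to 10.48 on the first, from 9.11 over 9.51 to 9.67 on 1422687_at and from 10.23 over 10.35 to 10.52 on 1422688_a_at. In TLX1/RUNX-heterozygous tumours the signs were turned: the leading probe set rose by 0.25 ± 0.11 (adjusted p = 0.0419) and 1422687_at by 0.75 ± 0.09 (adjusted p = 3.61e-09), and 1422688_a_at fell by 0.65 ± 0.08 (adjusted p = 7.24e-10). In ThPOK tumours 1422687_at fell by 0.53 and 1422688_a_at rose by 0.32, the latter call being lost with arrays centred on their median. In olig-LMO1 tumours both were lower, at -0.64 and -0.35. In TLX1 tumours 1422687_at rose by 0.54 and 1422688_a_at fell by 0.31. The probe set 1422688_a_at also rose by 0.37 in beta-catenin and fell by 0.27 in p53 tumours. The calls in TLX1, beta-catenin and p53 tumours, and that of 1422688_a_at in olig-LMO1 tumours, were lost with the array set as a block. The 3 pairs of Nras probe sets had r = -0.19, 0.27 and 0.17 over 41 arrays, so no change in total Nras RNA can be read from these differences. With background means taken off, r was 0.32, 0.49 and 0.42. With the array set as a block, the leading probe set differed by -0.46 in Cdkn2a tumours (adjusted p = 0.053) and 1422688_a_at by 0.48 (adjusted p = 0.00251). The difference of 1422687_at in Cdkn2a tumours was then -0.21 (adjusted p = 0.31), and -0.0541 in the largest array set (adjusted p = 0.843). The block left the leading probe set at 0.27 in TLX1/RUNX-heterozygous tumours (adjusted p = 0.0653) and the other Nras probe sets at 0.76 and -0.61, both still called.

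Of 12 measured RAS family genes and regulators, 5 were higher and 2 lower in Cdkn2a tumours, close to the shares of all probe sets (35.0% and 17.0%), with Rasgrp1, a RAS activator of T cells, higher by 0.85 and a difference of -0.49 for Nf1, which switches RAS off. Beta-catenin tumours had 3 higher and 3 lower, with Rasgrp1 higher by 1.31, and Rras2 fell by 2.29. Of 12 measured ERK feedback genes, 5 were higher and 2 lower in Cdkn2a, 5 and 1 in beta-catenin, and 6 and 0 in Ikaros Plastic tumours, with medians of 0.21, 0.56 and 0.46 beside 0.07, 0.08 and 0.05. The shares of all probe sets higher were 35.0%, 28.5% and 22.0%. In Ikaros Plastic tumours Egr1, an immediate early gene, was higher by 1.71 and Spry2, a feedback inhibitor, by 1.21. Etv5, an ETS factor gene, was higher by 2.61 in beta-catenin and 0.75 in Cdkn2a tumours. In TLX1/RUNX-heterozygous tumours 0 were higher and 8 lower, with a median of -0.65 beside -0.16 and 46.0% of all probe sets lower. Of 18 other common insertion sites measured, 5 were higher and 5 lower in Cdkn2a tumours, beside 35.0% and 17.0% of all probe sets, with a difference of -0.90 for Evi5, a neighbour of Gfi1 at a shared insertion site, and a difference of -2.80 for Notch1, the receptor gene often altered in T-cell leukaemia. Beta-catenin tumours had 7 higher and 6 lower beside 28.5% and 10.7%, and Notch1 fell by 3.78 there. TLX1/RUNX-heterozygous tumours had 1 higher and 10 lower beside 20.8% and 46.0%. The list medians in these 3 backgrounds were -0.0249, 0.0206 and -0.43, beside 0.07, 0.08 and -0.16. The lists share Rasgrp1, Rras2, Pim2, Evi5 and Ahi1, and were chosen with earlier results known.

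Within the 9 Cdkn2a arrays, the genes named in the titles could be set against the RNA levels. The limma fit of the same 9 arrays called 0.0% of all probe sets for each of the myc, ras and myb titles, with 680, 199 and 603 probe sets at an unadjusted p under 0.05 and smallest adjusted p-values of 0.981, 1 and 0.983. Single members were tested by exact two-sided permutation of the arrays, with p-values adjusted over 39 tests.

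Myc read 12.25, 12.56, 12.19, 12.49 and 12.07 in the 5 arrays whose titles name myc, against 12.23, 12.01, 11.77 and 11.80 in the other 4. The groups overlapped at 1 array, the one titled for ras alone, and the other 3 lay below all myc-titled arrays. The means were 12.31 ± 0.21 (SD, n = 5) and 11.95 ± 0.21 (SD, n = 4), a difference of 0.36 or 1.28-fold (exact permutation p = 0.0476, adjusted p = 0.361, smallest possible p 0.0159). The 3 arrays titled for ras, 2 of which also name myc, had the higher Myc mean, 12.43 ± 0.18 against 12.01 ± 0.20 in the other 6 (exact permutation p = 0.0476, adjusted p = 0.361). With the titles naming both left out, the myc-titled difference was 0.22. The 20 MYC target genes had 0 called for the myc titles, with a median difference of 0.16 beside -0.03 for all probe sets.

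Myb read 12.996 and 13.18 in the 2 arrays titled for myb, against values from 11.72 to 12.90 in the other 7, with no overlap. The difference was 0.60 or 1.52-fold for the leading probe set, 0.61 for 1450194_a_at and 0.70 for 1422734_a_at, and the groups lay apart on all 3. The exact permutation p was 0.0556 for each (adjusted p = 0.361), the smallest that 2 against 7 allow. The 2 myb-titled arrays lie in different array sets, the first and the second. Within the second set, replicate 6 at 12.996 was above the 7 other arrays there. The nearest other array was the one titled myc_pure_II at 12.90, and the array lowest in Myb was the one titled for pim1 and ccnd3.

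Pim1 read 12.21 on 1423006_at in the array titled for pim1 and ccnd3, against 10.08 to 10.83 in the other 8 Cdkn2a arrays, 1.89 above their mean or 3.72-fold. It was the highest value of the 53 arrays on that probe set. On 1435458_at the same array read 9.01, against 9.10 to 10.39, the lowest of the 53. With 1 array there is no test. The gap on 1423006_at to the nearest of the other 8 Cdkn2a arrays exceeds the whole range of those 8. Ccnd3, the D-type cyclin gene also in the title, read 11.05 there, against 11.22 to 12.82, the lowest of the 9. Myb was lower than in the other 8 arrays on all 3 probe sets, at 11.72, 11.25 and 10.58, and the related Pim3 was higher at 11.35, against 10.05 to 10.84. Of the 8 stromal, endothelial and epithelial markers, the 3 epithelial ones were higher in the same array. Krt18 was at 11.04 against 7.21 to 8.68, Krt8 at 10.10 against 8.21 to 9.15 and Epcam at 10.19 against 7.62 to 9.88. The collagen genes Col1a1, Col1a2 and Col3a1 were lower than in all other 8, at 9.35, 10.27 and 10.20. Of the endothelial markers, Pecam1 at 9.99 was above the other 8, which reached 9.89, and Cdh5 at 8.71 lay within their range. Of the B-lineage markers, Cd79a was 9.75 against 7.73 to 8.91 and Cd79b 9.75 against 7.62 to 9.12. Ms4a1 was 9.41 against 7.61 to 8.93 and Cd22 11.18 against 9.90 to 10.72. Pax5 (7.65 against 7.58 to 7.78) and Blk (9.04 against 8.65 to 9.06) lay within the range of the other 8 arrays. The B-lineage sum was 5444.1, against 2188.9 to 3739.4. Of the T-lineage markers, Cd3d at 13.02, Cd3e at 12.49, Cd3g at 12.52 and Cd5 at 11.09 were above all other 8 arrays. Bcl11b was lower at 10.12 against 10.70 to 11.48, and Thy1 at 12.379 was just below the lowest of the others, 12.389. Cd2 and Zap70 lay within their range. Which cells carried these markers, and their part in the Pim1 and Myb values, was not tested.

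Nras read 10.11, 10.29 and 10.48 on the leading probe set in the 3 arrays titled for ras, against 9.80 to 10.39 in the other 6, so the groups overlapped, although the highest of the 9 was a ras-titled array and the lowest was not. The difference was 0.06 (exact permutation p = 0.81, adjusted p = 0.929), and it was 0.01 and 0.11 on the other probe sets. The titles do not say which ras gene is meant, and a mutation in the coding sequence need not change the RNA level. The 12 ERK feedback genes had 0 called for the ras titles, with a median of -0.05 beside -6e-04. Gfi1, named in no title, ran from 9.97 in the array titled myc_mix_I to 11.59 in the array titled myb_II.

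**Figure D4:**
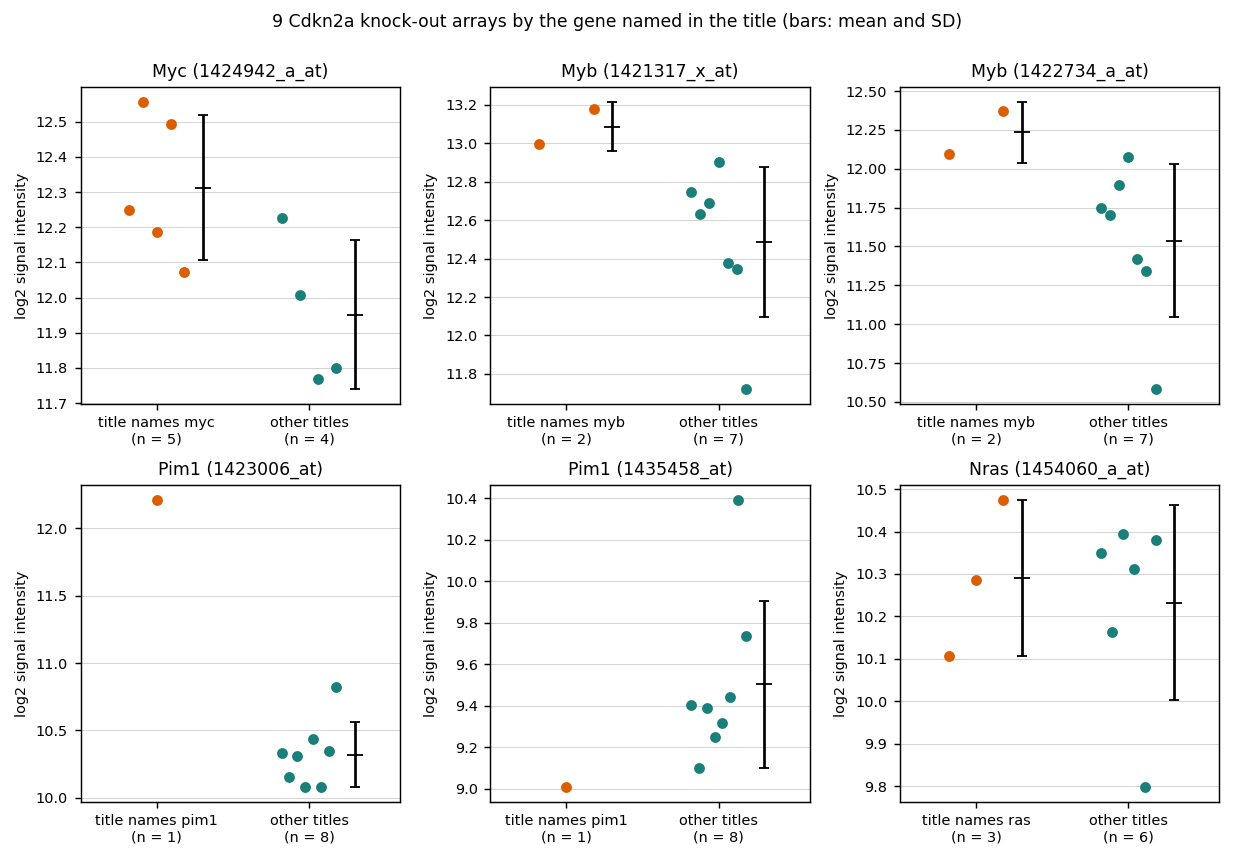
Log2 signal intensity in the 9 Cdkn2a knock-out arrays, split in each panel by whether the title names the gene above it (left) or not (right), with points for arrays and bars for mean and SD. Myb-titled arrays lie above all others on both Myb probe sets shown, the pim1-titled array is highest on 1423006_at and lowest on 1435458_at, and ras-titled arrays overlap the others for Nras.

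The genes whose pattern over the 41 arrays was most like that of each member's leading probe set were found among 9155 genes, by Pearson r of log2 values. For Myc these were Zbtb1 (0.77), Rbm25 (0.76) and Minpp1 (0.76), with r over the 13 background means of 0.88, 0.85 and 0.82. For Mycn they were Gm38402 (0.96), Hes7 (0.94) and Prss32 (0.94), with 0.97, 0.98 and 0.96 over background means. Those of Myb were Stmn1 (0.90), Trp53inp1 (0.89) and Ezh2 (0.86), and r dropped to 0.49, 0.57 and 0.45 over 39 arrays without p53 and Ikaros Plastic replicate 2. For Gfi1, Gnai3 (0.80) kept its r without those arrays (0.79), whereas Celf2 (0.79) and Ptprcap (0.79) had 0.36 and 0.43. Pim1 1435458_at was closest to Numa1 (0.71), Clk4 (0.66) and Map2k1 (0.65), and Nras to Dhx30 (0.77), Eif1b (0.77) and Taf13 (0.77). Arrays of a background mostly lie in the same array set and share a brightness, so these values describe likeness only.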

How the data were processed

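Tumour RNA was hybridised to 53 arrays of 1 colour after Trizol extraction and biotin labelling, per the labels' protocols. The deposited values are signal intensities on a linear scale that the authors had processed before deposit, and the background correction, normalization and summary method are not given in the sources used here. They were log2-transformed without a floor or further normalization. Of 22690 probe sets, 64 controls were left out and 22626 tested. The probe gene table given with the series gave 1 symbol to 20380 probe sets, several to 691 and none to 1555, and only those with 1 symbol were named. There were 0 columns without a sample. Arrays have no read depth, and their number limits the precision.

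Groups came from the genotype and source labels. Differences among backgrounds were fitted with limma 3.58.1 (R 4.3.3; lmFit, eBayes, moderated F, and contrasts of each background with the mean of the other 14), with Benjamini-Hochberg adjustment over all probe sets and a threshold of 0.05. Titles within the Cdkn2a arrays were compared with exact permutation tests over all splits of the arrays (Python 3.11.15, NumPy 2.4.6), and tables were handled with pandas 2.3.3. Array sets came from Ward clustering of 45 control probe sets (SciPy 1.17.1). Alternatives were quantile normalization, median centring, a low-value filter (3 or more arrays brighter than their median), trended and robust eBayes, the largest array set alone, TLX1 and crossed arrays left out, each replicate left out, other choices of probe set, titles naming both genes left out, and the replicate number as a block. The array set as a block, the fit without Cdkn2a arrays and without that block, and the p53 list counts without p53 replicate 2 were chosen after seeing the data. Scripts were tested on simulated data.

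Named genes are the 6 members, up to 4 genes of a related list with the largest called differences in a background, the genes of the Cdkn2a titles, markers, and the 3 genes most like each member. The members and lists were chosen with earlier results of these data known. Replicate numbers do not pair samples across groups: deviations of same-numbered arrays had a median correlation of -0.01 over 216 pairs of arrays, against 0.0039 over 672 other pairs.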

Additional observations from a re-analysis of the deposited data

Results flagged for a closer look

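In 39 groups of 6 or 9 values (13 probe sets in each of the 3 larger backgrounds), 4 held a value whose gap to its nearest neighbour was large for the range of the group; chance flags about 5% of such groups. All 4 were in Cdkn2a tumours. Pim1 1423006_at was 12.21 in the array titled for pim1 and ccnd3, against 10.08 to 10.83 in the other 8. Mycn 1425923_at was 9.62 in that same array, against 9.15 to 9.36. Mycn 1425922_a_at was 8.21 in the array titled myb_II, against 7.37 to 7.62. Gfi1 was 9.97 in the array titled myc_mix_I, against 10.87 to 11.59 in the other 8.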

How the results depend on the processing

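Of the 45 calls in single backgrounds, 13 were kept in every alternative run, counting those that gave a value: 5 of 14 for Mycn, 4 of 14 for Nras, 3 of 4 for Pim1, 1 of 5 for Gfi1, 0 of 5 for Myc and 0 of 3 for Myb. The count was 24 in the largest array set alone, where fewer backgrounds enter, and 22 with the array set as a block; it ran from 43 to 49 with 1 array left out, and the count over all backgrounds from 10 to 12. The replicate block, run without Cdkn2a arrays, gave 33 calls, against 34 without the block on the same arrays, and 10 over all backgrounds in both. With arrays centred on their median, the count over all backgrounds was 13. The sign turned for Gfi1 in p53 tumours (0.41 in the largest array set, 0.37 with the array set as a block, -1.98 to 0.23 with 1 array left out), for Myc in TLX1 tumours (0.0755 with that block), and for Mycn 1417155_at in TLX1/RUNX-heterozygous tumours (0.0011 after quantile normalization, 0.0848 with centred arrays). Within Cdkn2a arrays, the myc-titled Myc difference was 0.22 with titles naming both genes left out (exact permutation p = 0.171) and 0.30 to 0.45 with 1 array left out. The Nras difference was -0.13 with those titles left out and -0.0358 to 0.15 with 1 array left out. That of Myb was 0.47 to 0.69, and that of Pim1, -0.50 on its leading probe set, was 0.70 as a mean of both probe sets, 1.89 on the more variable one and -0.55 to -0.37 with 1 array left out. The cause of these changes was not tested. Probe sets near the array median, as for Mycn, limit what small differences show.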

Other observations

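Pvt1, a long non-coding RNA gene next to Myc and itself a known retroviral insertion site, was looked at after its values were seen. On its leading probe set it read 10.40 in the Cdkn2a array titled myc_pure_II, 10.25 in the one titled myb_II and 9.80 in the one titled for pim1 and ccnd3, against 8.01 to 9.19 in the other 6 Cdkn2a arrays. A second Pvt1 probe set gave the same 3 arrays the highest values, 10.30, 10.67 and 9.71, against 8.07 to 9.16. In those 3 arrays Myc read 12.19, 12.01 and 11.77, so the arrays with the higher Pvt1 values were not those with the higher Myc values.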
